A study of Mus musculus with 10 samples.

Results

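The 9 genes described here belong to the renin-angiotensin system (Agt, Ace, Agtr1a, Agtr2 and Atp6ap2) and to the endothelin system (Edn1, Ece1, Ednra and Ednrb). Members were found by symbol. Each probe of the array carries a RefSeq accession, and every probe whose accession belongs to a listed symbol was taken. This gave 12 probes of 56605 on the array, and 9 genes of the 22911 that could be named. Expression was measured in hearts of C57BL/6N mice, separated into the right ventricle (RV, 4 arrays), the left ventricle (LV, 3 arrays) and the ventricular septum (Septum, 3 arrays). The mice carried no named allele and received no named treatment, and their age is not given in the sources used here. All pieces came from hearts perfused with cold buffer, and total RNA of frozen tissue powder was labelled with Cy3 and read on single-colour Agilent arrays. A level is the log2 signal of a probe minus the 75th percentile of its array, so 0 stands for a probe at that percentile, and a difference of 1 for a 2-fold change in signal. Levels of different probes cannot be set against each other, and every comparison below is of the same probe between regions. The question was whether the walls of the heart differ in their expression of these hormone systems.

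In the renin-angiotensin system, angiotensinogen is cut by renin and then by angiotensin-converting enzyme to give angiotensin II, which acts mainly on the type 1 receptor to constrict vessels and to promote growth and fibrosis of the heart. In the endothelin system, big endothelin-1 is cut by endothelin-converting enzyme to the active peptide. Endothelin-1 is made largely by endothelial cells, including the endocardium that lines the chambers, and acts on the receptors ETA, abundant in muscle, and ETB, abundant on endothelium. Both type 1 angiotensin and endothelin receptors signal through the G protein Gq.

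Between 53.7% and 64.0% of the 59305 spots that were not controls were well above background on each array, and 0 spots were saturated. Replicates 1 and 2 of each region had been hybridised on 1 slide (slide 1) and the other 4 arrays, RV replicates 3 and 4 with LV and septum replicate 3, on another (slide 2). Each slide was scanned on a day of its own, and the regions could also be compared within each slide. The sources state that different individuals were used for each experiment but not whether pieces with the same number came from the same heart. The p-values measure the spread between these arrays. The 12 listed cardiomyocyte markers all passed the filter on dim probes and none was called between the regions. In RV minus LV 11 differences were negative and 1 positive (median -0.13, against -0.037 over all probes). In RV minus septum 7 were negative and 5 positive, and in septum minus LV 11 and 1. With slide as a block 4 of these markers were called lower in RV than in LV and 1 lower than in septum. Of all probes tested, 17.6% and 8.74% were called in either direction with that block. Since each sample is a piece of tissue, fewer cells of a type and less RNA per cell cannot be told apart.

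Of the 9 genes, 8 were tested, because the filter kept a probe only if all arrays of 1 region or more had it well above background. The exception was Agtr2. Expression of the endothelin-converting enzyme Ece1 in RV exceeded that in LV by 0.43 on the log2 scale (1.35-fold, SE 0.087, 95% confidence interval 0.24 to 0.63, adjusted p = 0.0296, limma). It was the only member called in a pair of regions. The ligand gene Edn1 and the receptor gene Ednrb also lay above LV and septum on every RV array, but with all 10 arrays in a model without blocks they did not pass the test. None of the renin-angiotensin members passed it in any pair.

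These counts stood as follows against all 30234 probes tested. In RV against LV, 1 member of 8 was called, and of all probes 3.86% were called in either direction and 2.31% higher in RV. In RV against septum, 0 members were called, where of all probes 2.08% were called in either direction and 1.2% higher in RV. In septum against LV, 0 members and 0% of all probes were called. The F test over the 3 regions called 0 members and 2.78% of all probes. At an unadjusted p below 0.05 there were 5 members in RV against LV, 3 in RV against septum, 0 in septum against LV and 4 by the F test, and of all probes 5992, 4249, 862 and 4720. RV against LV and RV against septum share the 4 RV arrays, so they are not independent of each other.

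**Figure D1:**
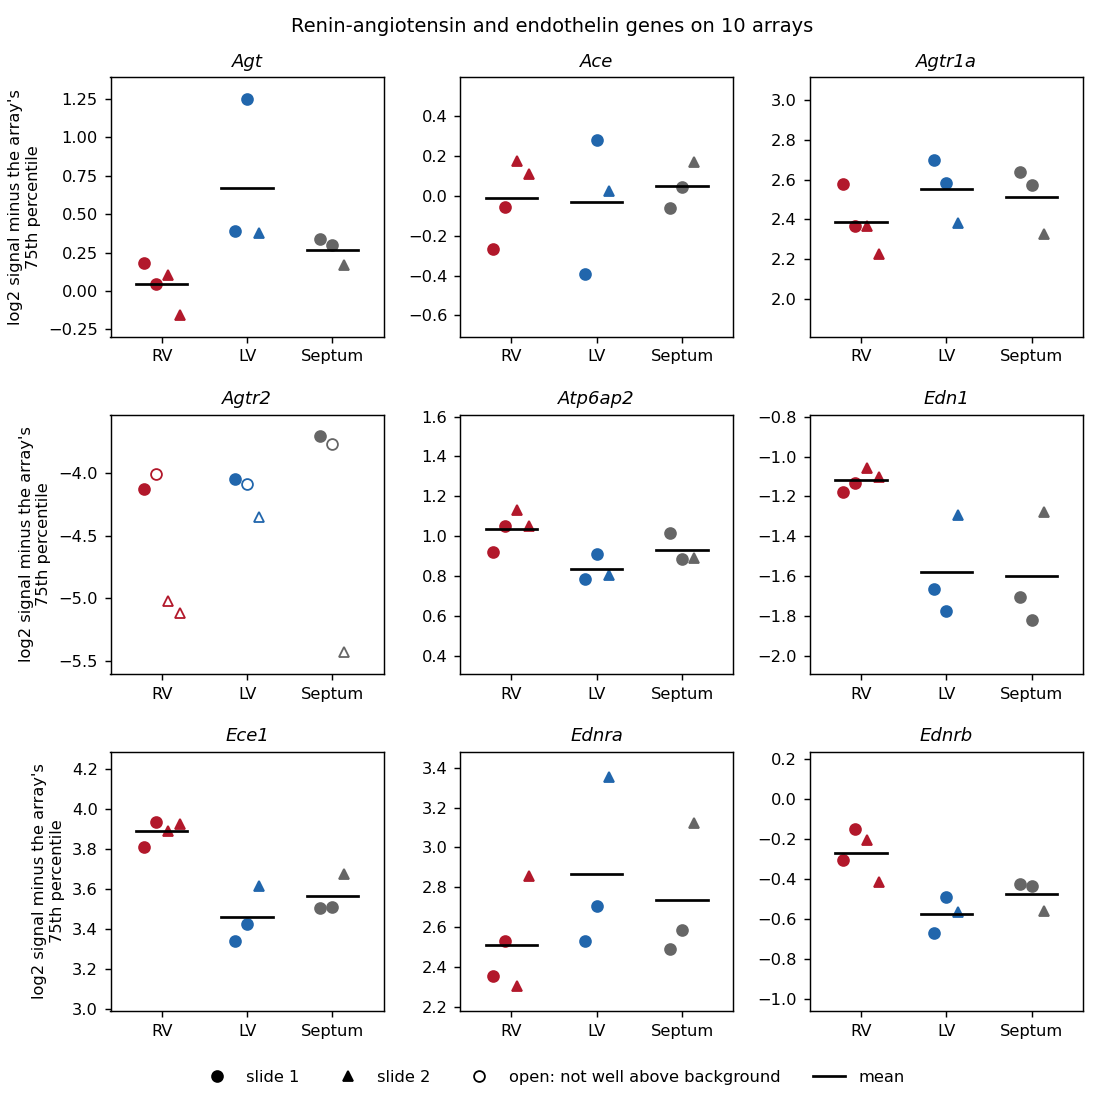
Level (log2 signal minus the array's 75th percentile) of the 9 genes on the 4 RV, 3 LV and 3 septum arrays, each panel with its own vertical scale. Points are arrays, circles lie on slide 1 and triangles on slide 2, open points were not well above background and lines are means (none for Agtr2). All 4 RV points of Edn1, Ece1 and Ednrb lie above all LV and septum points.

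The genomic sequence just upstream of these genes is shown for the 3 members whose RV arrays lay above all others, and for Agt, whose RV arrays lay below all LV arrays. Each run holds the 250 bases before an annotated start in RefSeq (mouse build GRCm38.p6), 5′ to 3′ along the gene. Capitals mark matches, on either strand, to the motifs searched, each of which may overlap another. The TATA box was searched as TATAAA. The CCAAT box was searched by the letters of its name. The GC box was searched as GGGCGG. The site of AP-1 was searched as TGANTCA. The site of GATA factors was searched as AGATAA, and the core of the hypoxia response element as ACGTG. The array did not measure these sequences. Edn1 has its window at chr13:42301226-42301475 (plus strand), Ednrb at chr14:103843702-103843951 (minus strand), Agt at chr8:124569707-124569956 (minus strand), and Ece1, which has 4 annotated starts, is shown for the first, at chr4:137861987-137862236 (plus strand).
Edn1: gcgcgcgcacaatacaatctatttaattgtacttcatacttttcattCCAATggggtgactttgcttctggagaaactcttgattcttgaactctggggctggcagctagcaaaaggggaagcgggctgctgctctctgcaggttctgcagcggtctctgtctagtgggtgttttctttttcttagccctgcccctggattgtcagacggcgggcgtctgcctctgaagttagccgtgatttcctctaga
Ece1: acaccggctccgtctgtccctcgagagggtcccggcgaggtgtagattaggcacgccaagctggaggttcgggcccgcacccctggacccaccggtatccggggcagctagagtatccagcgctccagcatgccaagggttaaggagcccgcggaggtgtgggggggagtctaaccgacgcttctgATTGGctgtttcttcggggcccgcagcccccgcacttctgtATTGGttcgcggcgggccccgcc
Ednrb: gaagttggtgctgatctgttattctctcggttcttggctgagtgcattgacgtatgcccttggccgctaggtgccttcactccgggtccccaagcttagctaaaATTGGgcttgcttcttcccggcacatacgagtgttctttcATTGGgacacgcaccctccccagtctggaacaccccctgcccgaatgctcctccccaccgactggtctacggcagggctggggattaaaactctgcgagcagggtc
Agt: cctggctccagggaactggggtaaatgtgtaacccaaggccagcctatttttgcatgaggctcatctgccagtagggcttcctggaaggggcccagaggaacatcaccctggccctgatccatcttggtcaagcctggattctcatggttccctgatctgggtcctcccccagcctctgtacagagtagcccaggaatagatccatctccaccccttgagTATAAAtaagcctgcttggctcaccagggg

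The Edn1 window held a CCAAT match 203 bases before the start. The Ednrb window held that match on the reverse strand, in the reverse complement, at 146 and 106 bases, and the Ece1 window at 64 and 23 bases. Among all 32851 promoters in the table, 33.8% held this motif in the same length. CCAAT matches also stood upstream of Ace, Agtr2 and Atp6ap2, so the motif was shared with members whose RV arrays did not lie above both other regions. Agt held a TATA box 30 bases before its start, and Ace held these letters on the reverse strand 31 bases before one of its starts. The motif was present in 12.4% of promoters. The GC box was found in 32.7% of promoters and, among the 8 members with a window in the table, upstream of Ace, Atp6ap2 and other Ece1 starts. The hypoxia response core, present in 16.6% of promoters, was found upstream of Atp6ap2 and of another Ece1 start. No member's window held the AP-1 letters (6.75% of promoters) or the GATA letters (9.99%). A match describes letters in a window and not a binding site.

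Endothelin-1 is the peptide that starts signalling in the endothelin system. Edn1 (probe A_51_P115005) read -1.18, -1.13, -1.06 and -1.10 on RV arrays 1 to 4. It read -1.67, -1.77 and -1.29 on LV arrays 1 to 3, and -1.70, -1.82 and -1.28 on septum arrays 1 to 3. The RV arrays lay close together (SD 0.051) and above all others, while LV and septum overlapped and each had its highest array on slide 2. Of all tested probes with a value on every array, 8.1% had all RV arrays above all LV arrays and 11.1% had all below. Against septum these shares were 5.86% and 7.82%. Edn1 differed by 0.46 from LV (1.38-fold, SE 0.15, interval 0.13 to 0.79, adjusted p = 0.122) and by 0.48 from septum (1.40-fold, SE 0.15, interval 0.15 to 0.81, adjusted p = 0.162), neither past the threshold. Septum minus LV was -0.023 (interval -0.38 to 0.33). The order of mean levels was RV, LV, septum, and the last pair did not differ beyond their spread.

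The level of Edn1 also differed between slides and, averaged over regions, was 0.29 higher on slide 2. On slide 1 alone the difference from LV was 0.56, and on slide 2 alone 0.21. The corresponding differences from septum were 0.61 and 0.20. With slide as a block in the model the difference from LV was 0.41 (adjusted p = 0.0207) and from septum 0.43 (adjusted p = 0.0262), both past the threshold. Blocking by replicate number, they were 0.45 (adjusted p = 0.0310) and 0.48 (adjusted p = 0.0404), in a fit to which RV replicate 4, the only array without a partner, adds nothing. The sign was the same on both slides and the size on slide 1 exceeded that on slide 2.

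Ece1 encodes the membrane protease that turns big endothelin-1 into the active peptide. Its brighter probe (A_52_P635278) read 3.81, 3.94, 3.89 and 3.93 on RV arrays 1 to 4. On LV arrays 1 to 3 it read 3.34, 3.42 and 3.62, and on septum arrays 1 to 3 it read 3.51, 3.51 and 3.68. All 4 RV arrays were above all LV and septum arrays, and the highest LV and septum arrays were again those of slide 2. RV minus septum was 0.33 (1.25-fold, SE 0.087, interval 0.13 to 0.52, adjusted p = 0.109), which did not pass. It passed with slide as a block (0.31, adjusted p = 0.0211) and when the replicate number was the block (0.32, adjusted p = 0.0425). Septum minus LV was 0.10 (interval -0.11 to 0.31).

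The call of Ece1 in RV against LV was close to the threshold. Within slide 1 the difference was 0.49 and within slide 2 it was 0.29, and with a block for slide 0.41 (adjusted p = 0.00493). Leaving out each of the 10 arrays in turn gave differences from 0.37 to 0.51, with adjusted p from 0.0317 to 0.118. The call was kept in 4 of these 10 fits and lost without RV replicate 2 (adjusted p = 0.0728), RV replicate 3 (0.0541), RV replicate 4 (0.0817), LV replicate 1 (0.117), LV replicate 2 (0.118) or septum replicate 2 (0.0501). The other Ece1 probe (A_51_P105725) was well above background on 1 of 10 arrays and was not tested, so the result rests on a single probe.

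Ednra encodes the receptor ETA, through which endothelin-1 contracts muscle. Its probe (A_52_P156190) read 2.36, 2.53, 2.30 and 2.86 on RV arrays 1 to 4, 2.53, 2.71 and 3.36 on LV arrays, and 2.49, 2.59 and 3.12 on septum arrays. The regions overlapped, and RV replicate 4, LV replicate 3 and septum replicate 3, all on slide 2, were the highest of their groups. RV minus LV was -0.35 (SE 0.23, interval -0.87 to 0.16, adjusted p = 0.446) and RV minus septum -0.22 (interval -0.74 to 0.29, adjusted p = 0.747). The sign was opposite to that of the other endothelin members, and the interval included 0. The RV minus LV difference was -0.18 within slide 1 and -0.78 within slide 2, and ran from -0.52 to -0.11 when each array was left out, the smallest without LV replicate 3. Averaged over regions, the level was 0.44 higher on slide 2, the largest slide shift among the members.

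Ednrb encodes ETB, the receptor that on endothelium releases vasodilators and clears endothelin-1. Its brightest probe (A_52_P577662) read -0.30, -0.15, -0.20 and -0.41 on RV arrays 1 to 4. It read -0.67, -0.49 and -0.56 on LV arrays, and -0.42, -0.44 and -0.56 on septum arrays. All RV arrays were above all others, RV replicate 4 by a margin smaller than the spread among RV arrays. The brightest probe differed by 0.31 from LV (1.24-fold, SE 0.087, interval 0.11 to 0.51, adjusted p = 0.0857) and by 0.21 from septum (1.15-fold, interval 0.011 to 0.40, adjusted p = 0.330), neither past the threshold. On slide 1 the difference from LV was 0.36, and on slide 2 it was 0.26. It passed with slide as a block (0.32, adjusted p = 0.0245) and when the replicate number was the block (0.36, adjusted p = 0.0228), and the difference from septum passed with neither (adjusted p = 0.120 and 0.0709).

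A further Ednrb probe (A_55_P2089710) also had its RV arrays above the rest. It ran from -1.40 to -0.97 on RV arrays, from -1.74 to -1.49 on LV arrays and from -1.88 to -1.48 on septum arrays. Its differences were 0.38 from LV (SE 0.13, adjusted p = 0.156) and 0.44 from septum (SE 0.13, adjusted p = 0.165), neither past the threshold. A last Ednrb probe (A_55_P2740239) was not well above background on any array. The mean of septum lay above that of LV by 0.10 for the brightest probe, and septum minus LV was -0.058 for the second, so the order of these regions differed between the probes.

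**Figure D2:**
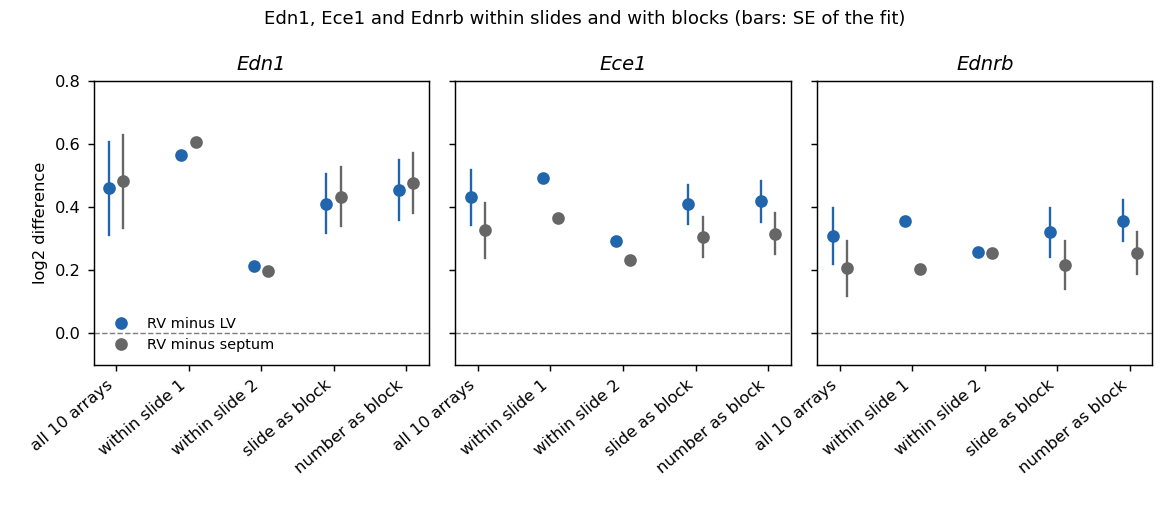
Difference in log2 level of Edn1, Ece1 and Ednrb between RV and LV (blue) and between RV and septum (grey), with all 10 arrays, within each slide, and with the slide or the replicate number as a block. Bars are the SE of the fit and the values within slides are differences of means without a bar. Every value is above 0, and the values of Edn1 run from 0.20 within slide 2 to 0.61 within slide 1.

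Angiotensinogen, the precursor of all angiotensins, is made mainly by the liver and to a lesser extent in the heart. Agt (probe A_51_P323712) read 0.18, 0.04, 0.11 and -0.16 on RV arrays 1 to 4, 0.39, 1.25 and 0.38 on LV arrays, and 0.34, 0.30 and 0.17 on septum arrays. All RV arrays were below all LV arrays and all septum arrays were below all LV arrays, while RV and septum overlapped. Of all tested probes with a value on every array, 3.45% had all septum arrays below all LV arrays and 3.54% had all above. LV replicate 2 stood apart from the other LV arrays. The RV minus LV difference was -0.63 (SE 0.20, interval -1.07 to -0.18, adjusted p = 0.118), and -0.34 without LV replicate 2. RV minus septum was -0.23 (interval -0.67 to 0.22) and septum minus LV -0.40 (interval -0.88 to 0.075). None of these passed the test, also not with slide as a block, where RV minus LV was -0.59 (adjusted p = 0.0611).

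Angiotensin-converting enzyme removes the last residues of angiotensin I. Ace (probe A_52_P68028) read -0.27, -0.06, 0.18 and 0.11 on RV arrays 1 to 4, -0.39, 0.28 and 0.02 on LV arrays, and -0.06, 0.04 and 0.17 on septum arrays. The regions overlapped throughout, and LV held the lowest as well as the highest array. RV minus LV was 0.019 (interval -0.35 to 0.38) and RV minus septum -0.061 (interval -0.43 to 0.30). The sign of the former turned with slide as a block (-0.015) and under other settings.

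The type 1 receptor carries most actions of angiotensin II on heart and vessels. Agtr1a (probe A_52_P645862) read 2.58, 2.37, 2.37 and 2.23 on RV arrays 1 to 4, 2.70, 2.58 and 2.38 on LV arrays, and 2.64, 2.57 and 2.33 on septum arrays. The regions overlapped, and the slide 2 arrays were the lowest of LV and septum. RV minus LV was -0.17 (interval -0.43 to 0.094, adjusted p = 0.482), RV minus septum -0.13 (interval -0.39 to 0.13) and septum minus LV -0.041 (interval -0.32 to 0.24).

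The type 2 receptor opposes many actions of the type 1 receptor and is abundant before birth. Agtr2 (probe A_55_P2913702) was well above background on 3 of 10 arrays, the first replicate of each region. It read -4.13, -4.00, -5.02 and -5.12 on RV arrays 1 to 4, -4.05, -4.09 and -4.35 on LV arrays, and -3.70, -3.77 and -5.43 on septum arrays. No region had it above background on every array, so no difference is given.

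Atp6ap2 encodes the prorenin receptor, which is also an accessory subunit of the vacuolar proton pump. Its probe (A_51_P461724) read 0.92, 1.05, 1.13 and 1.05 on RV arrays 1 to 4, 0.79, 0.91 and 0.80 on LV arrays, and 1.02, 0.89 and 0.89 on septum arrays. RV lay above LV without overlap, by a narrow margin (lowest RV array 0.92, highest LV array 0.91), and septum overlapped with RV. RV minus LV was 0.21 (1.15-fold, SE 0.078, interval 0.030 to 0.38, adjusted p = 0.184) and RV minus septum 0.11 (interval -0.067 to 0.28), neither past the threshold.

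**Figure D3:**
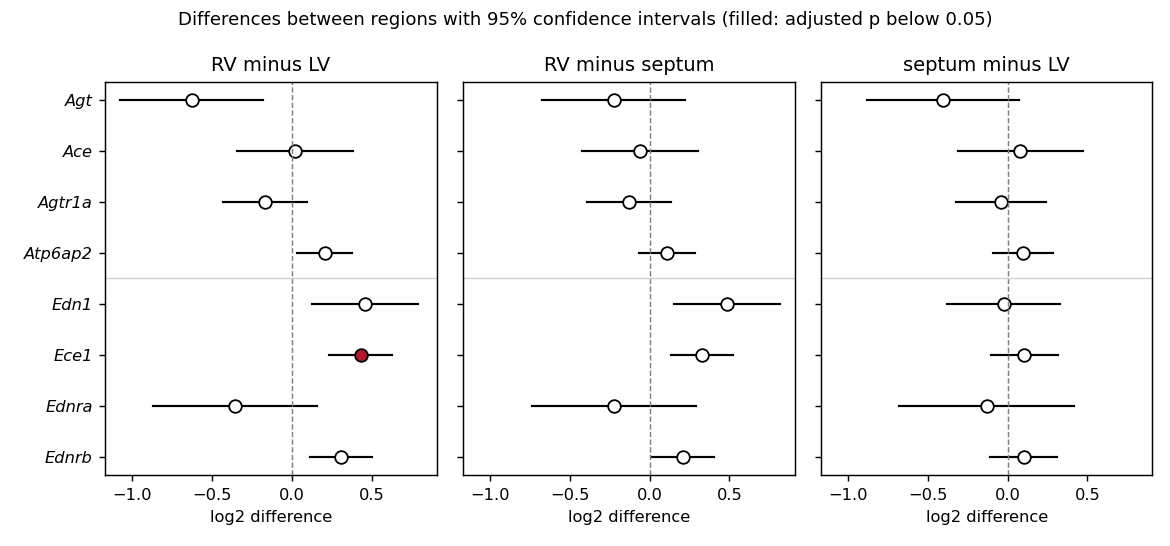
Differences in log2 level between regions for the 8 tested genes, with renin-angiotensin genes above the grey line and endothelin genes below it. Points are differences from the limma fit on all 10 arrays, bars are 95% confidence intervals and the filled point (Ece1 in RV minus LV) is the only one with an adjusted p below 0.05. All intervals of septum minus LV include 0.

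As groups, the 4 endothelin members had a median RV minus LV difference of 0.37 and a median RV minus septum difference of 0.27, with 3 members above 0 and 1 (Ednra) below in each comparison. The 4 tested renin-angiotensin members had medians of -0.075 and -0.094. Over all probes tested the medians were -0.037 and -0.032. With slide as a block, 3 members (Edn1, Ece1 and Ednrb) were called in RV against LV and 2 (Edn1 and Ece1) in RV against septum, where of all probes 17.6% and 8.74% were called. Blocking by replicate number, the counts were again 3 and 2, and of all probes 14.9% and 7.12%. In septum against LV neither block called a member, and of all probes 0.0463% and 0% were called.

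The other genes of these pathways were followed in lists of 60 genes, of which 47 were tested. Of 21 renin-angiotensin genes, 17 were tested. In RV against LV 2 of them were called higher in RV and 1 lower, where of all probes 3.86% were called in either direction and 2.31% higher. In RV against septum 1 was called higher, where these shares were 2.08% and 1.2%. Without overlap, 4 of the 17 lay above LV and 5 below it on all RV arrays, against 8.1% and 11.1% of tested probes. Against septum 4 lay above and 3 below, where the shares were 5.86% and 7.82%. Enpep, the aminopeptidase that turns angiotensin II into angiotensin III, was higher in RV than in both other regions. It read -1.56, -1.67, -1.75 and -1.76 on RV arrays 1 to 4, -2.28, -2.70 and -2.63 on LV arrays, and -2.22, -2.54 and -2.46 on septum arrays, without overlap of RV with either. The difference was 0.85 from LV (1.80-fold, SE 0.12, adjusted p = 0.00735) and 0.72 from septum (1.65-fold, SE 0.12, adjusted p = 0.0226). Leaving out each array in turn kept the first call in 10 of 10 fits and the second in 5 of 10 (adjusted p from 0.0172 to 0.106), which was lost without RV replicate 1, 2 or 4 or septum replicate 2 or 3.

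Anpep, the aminopeptidase that acts next on angiotensin III and is found on many cell types, was higher in RV than in LV. Its RV arrays read 2.18, 2.23, 2.85 and 2.80, its LV arrays 1.45, 1.49 and 1.87, and its septum arrays 2.08, 1.87 and 2.26. All RV arrays were above all LV arrays, and RV and septum overlapped. The difference from LV was 0.91 (1.88-fold, SE 0.20, adjusted p = 0.0364), and that from septum was 0.44 (adjusted p = 0.353). The call from LV was kept without RV replicate 1 or 2 or septum replicate 3 and lost without any other array (adjusted p up to 0.134). Lnpep, the insulin-regulated aminopeptidase that binds angiotensin IV, was lower in RV than in LV, with RV arrays from 0.56 to 0.72 and LV arrays from 0.84 to 1.03. RV minus LV was -0.33 (0.79-fold, SE 0.078, adjusted p = 0.0493), and this call was lost in each of the 10 fits that left out an array (adjusted p from 0.0634 to 0.164).

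Ren1, the renin gene, did not differ by the test. Its level ran from -3.24 to -2.08 on RV arrays, from -2.74 to -2.18 on LV arrays and from -3.15 to -2.18 on septum arrays, with wide intervals. Mas1, the receptor of angiotensin (1-7), lay above LV and septum on all RV arrays, with differences of 0.45 (adjusted p = 0.0633) and 0.42 (adjusted p = 0.113) that did not pass. With slide as a block these were 0.46 (adjusted p = 0.0211) and 0.44 (adjusted p = 0.0397), both past the threshold, but when the replicate number was the block neither passed (adjusted p = 0.0633 and 0.100). The mast cell proteases Cma1 and Mcpt4, which stand in the renin-angiotensin list, were not called. The RV minus septum difference of Cma1 was 1.11 (adjusted p = 0.100), which passed with slide as a block (1.15, adjusted p = 0.0463) and not when the replicate number was the block (adjusted p = 0.101). In the mast cell list, which holds both genes, 7 of 8 markers were tested and 0 called, and its score ran from -0.022 to 0.33 on RV arrays and from -0.47 to 0.041 on septum arrays.

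**Figure D4:**
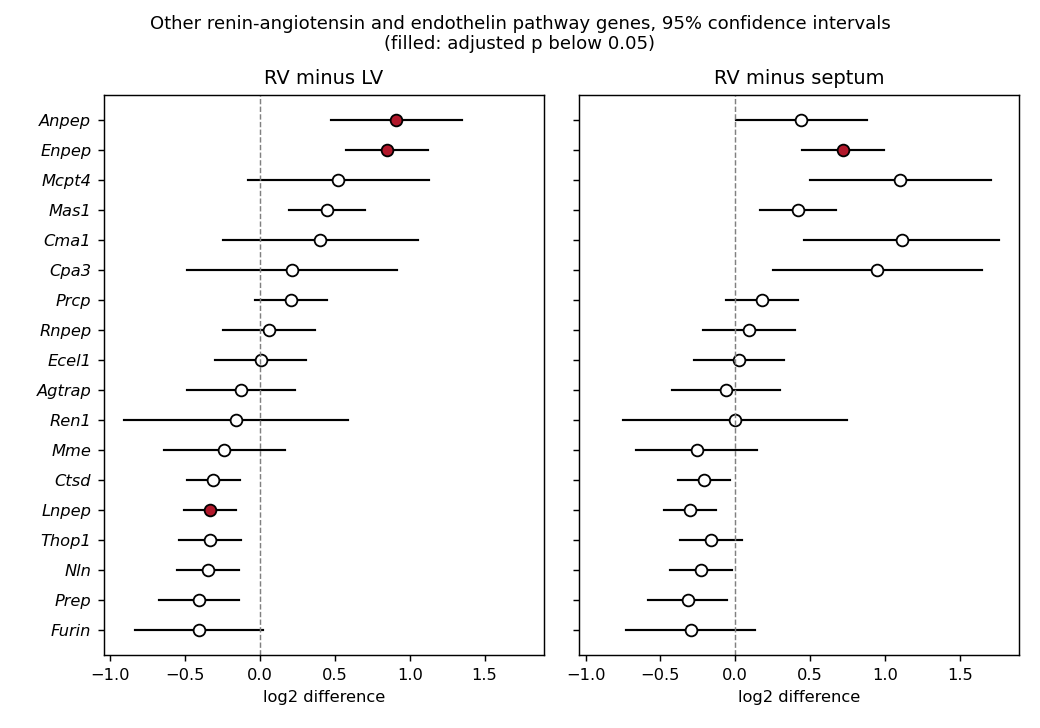
Differences in log2 level, RV minus LV and RV minus septum, for 16 of the 17 other renin-angiotensin genes and for the 2 other endothelin genes (Ecel1 and Furin) that were tested, ordered by RV minus LV. Bars are 95% confidence intervals, and filled points (Anpep, Enpep and Lnpep against LV, Enpep against septum) have an adjusted p below 0.05.

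Of the 7 other endothelin genes, 2 were tested, Furin, the protease that makes big endothelin-1, and Ecel1, and neither was called. Furin was lower in RV than in LV with slide as a block (-0.47, adjusted p = 0.0424) and when the replicate number was the block (-0.48, adjusted p = 0.0211), against -0.41 (adjusted p = 0.276) without blocks. The ligand genes Edn2 and Edn3 were well above background on 4 and 0 arrays and were not tested, nor was Ece2 (6 arrays). A further list held 24 genes of receptor signalling, through Gq, through other G proteins (Gna12 and Gna13) or in general (arrestins and receptor kinases). All were tested, and 1 was called in RV against LV and 0 in RV against septum. Of all probes, 3.86% and 2.08% were called in these pairs in either direction. The called gene, Arrb1, a beta-arrestin that turns off and internalises receptors, was higher in RV than in LV. Its RV arrays read 2.57, 2.64, 2.83 and 2.72, its LV arrays 2.24, 2.37 and 2.35, and its septum arrays 2.36, 2.35 and 2.39. All RV arrays lay above all others, and the difference was 0.37 from LV (1.29-fold, SE 0.080, adjusted p = 0.0363) and 0.33 from septum (adjusted p = 0.0824). The call from LV was kept without RV replicate 1 and lost in the other 9 fits that left out an array (adjusted p up to 0.133). Of the 24 genes, 4 had all RV arrays above all LV arrays and 2 above all septum arrays, against 8.1% and 5.86% of tested probes. Of the 8 mineralocorticoid genes, 4 were tested and 0 called. The aldosterone synthase gene Cyp11b2 was well above background on 0 arrays. With slide as a block, 14 of the 47 genes were called in RV against LV and 9 in RV against septum. Of all probes, 17.6% and 8.74% were called there. When the replicate number was the block the counts were 15 and 4, and of all probes 14.9% and 7.12%.

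Markers of the vascular and endocardial lining were followed beside the endothelin genes. Of 12 endothelium markers, 5 had a positive RV minus LV difference and 7 a negative one, 0 were called, and the median difference was -0.092. The list score, which averages over its genes the level centred on each gene's own mean, ran from -0.12 to 0.066 on RV arrays, from -0.10 to 0.25 on LV arrays and from -0.14 to 0.10 on septum arrays. Of 7 endocardium markers listed, 6 were tested, and Hapln1 was well above background on 3 arrays only. All 6 had a positive RV minus LV difference, and 4 were called: Vwf by 1.65 (adjusted p = 0.00377), Plvap by 1.27 (adjusted p = 0.00751), Cytl1 by 1.91 (adjusted p = 0.00664) and Npr3 by 1.32 (adjusted p = 0.0404). In RV against septum 2 were called. Of all probes, 3.86% were called in either direction against LV and 2.08% against septum. The endocardium score ran from 0.45 to 0.79 on RV arrays, from -0.95 to -0.40 on LV arrays and from -0.39 to -0.035 on septum arrays, without overlap of RV with either.

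Other marker lists differed as well. The fibroblast list had all 12 differences above 0 in RV against LV, with 3 called, and its score ran from -0.023 to 0.59 on RV arrays against -0.44 to -0.16 on LV arrays. The adipocyte list was split in RV against LV, with 7 of 12 differences above 0 and 5 below, and 6 called, all higher. With slide as a block, and when the replicate number was the block, 6 of its markers were called higher and 1 lower. Its score ran from 0.76 to 1.07 on RV arrays, from -1.52 to -0.79 on LV arrays and from -0.38 to 0.35 on septum arrays. The mesothelium list had 1 of 11 called in RV against LV and 10 of 11 in RV against septum, where of all probes 3.86% and 2.08% were called. Its scores ran from 0.52 to 1.92 in RV, -0.73 to 0.068 in LV and -2.65 to -0.76 in septum. The macrophage list had all 12 differences above 0 in RV against LV and 0 called. Smooth muscle and pericyte markers had 6 of 12 above 0 and 0 called. Among them Myh11, Tagln and Cnn1 lay above LV on all RV arrays. Their differences were 1.38 (adjusted p = 0.0991), 1.55 (adjusted p = 0.0619) and 2.30 (adjusted p = 0.0787), and they passed with slide as a block. Acta2 lay below LV on all RV arrays (-0.31, adjusted p = 0.164). Des was lower in RV than in LV with slide as a block (-0.36, adjusted p = 0.0327). The blood list (6 tested) and the atrial myocardium list (7 tested) had 0 called in any pair. All 7 atrial markers had a negative RV minus septum difference (median -1.43), and septum replicate 1 had the highest atrial score, 1.98 against -1.12 to 0.67 on the other arrays. The glia and nerve list (6 tested) had 2 called higher in RV against each of the other regions. With slide as a block more markers were called in RV against LV, and of all probes 17.6% were called, against 3.86% without blocks. In the mesothelium list 10 of 11 were called higher, in the endocardium list 6 of 6, in the fibroblast list 7 of 12 and in the macrophage list 3 of 12. In the smooth muscle and pericyte list 4 were called higher and 2 lower, and in the endothelium list 2 higher and 3 lower. When the replicate number was the block these counts were 8, 6, 4 and 5 higher, then 3 higher and 2 lower, and 1 higher and 2 lower. Of all probes, 14.9% were called with that block. Fabp4 stands in the adipocyte and the endothelium list. Across the 10 arrays, which share 2 slides, the Pearson correlation with the endocardium score was 0.76 for Ece1, 0.57 for Edn1 and 0.85 for Ednrb, and with the endothelium score it was 0.24, 0.41 and -0.20. With the adipocyte score it was 0.87, 0.68 and 0.83, with the fibroblast score 0.74, 0.54 and 0.72, and with the smooth muscle and pericyte score 0.66, 0.74 and 0.30, the highest of the 12 lists for Edn1. With the macrophage score it was 0.34, 0.073 and 0.73, and with the cardiomyocyte score -0.33, -0.076 and -0.77. The region means were not removed for these correlations. Ece1, Edn1 and Ednrb lay higher on all RV arrays than on the others. A score that is also higher in RV tends to correlate with them, so such values add no support. The part of these cell types in the differences of Ece1, Edn1 and Ednrb was not tested.

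**Figure D5:**
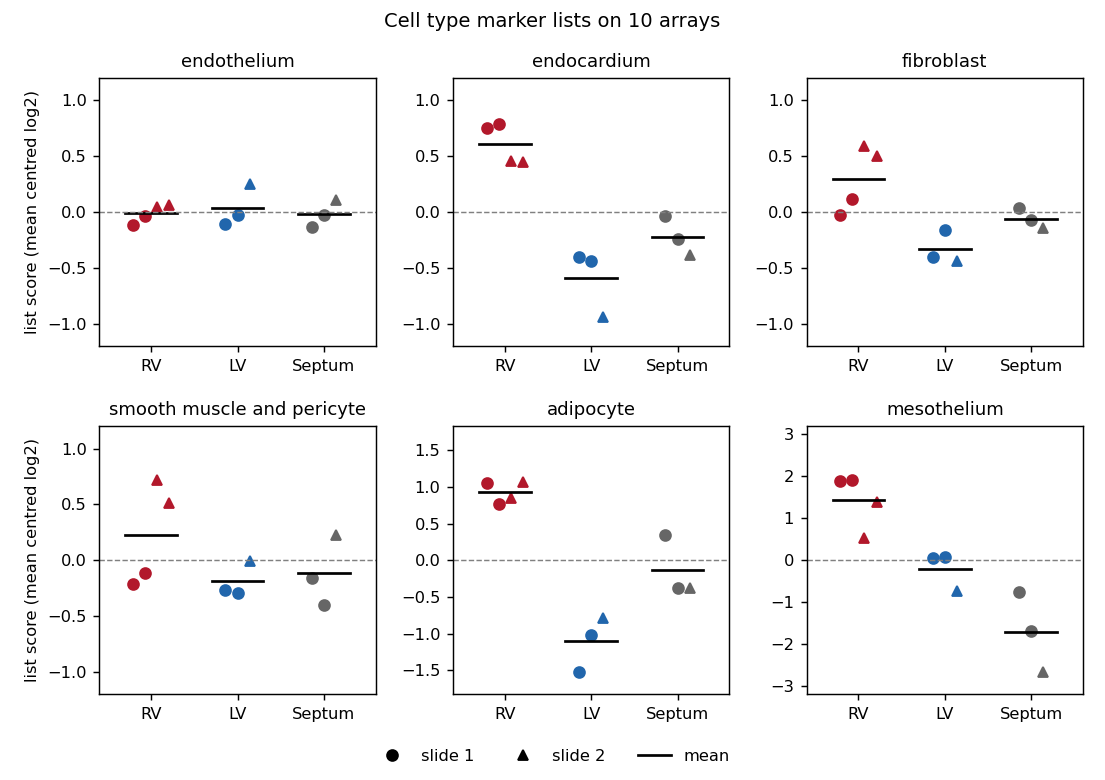
Score of 6 cell type marker lists on each array (log2 level centred on each gene's own mean, averaged over the list's tested genes), by region, with circles for slide 1, triangles for slide 2 and lines for means. The endothelium scores overlap between regions, while the 4 RV arrays lie above the LV and septum arrays for endocardium, adipocyte and mesothelium.

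Among 14621 genes with a tested probe, the patterns most like those of the 3 members with the smallest p of the F test were found by Pearson correlation over the 10 arrays, as a description. For Ece1 these were Heg1 (0.973), which encodes a receptor of endothelial and endocardial cells, Nlrp9a (0.972), Cyp2d11 (0.969) and Ramp2 (0.967), which encodes a partner of the adrenomedullin receptor. Heg1 and Ramp2 were higher in RV than in LV by 0.37 (adjusted p = 0.0359) and 0.35 (adjusted p = 0.0453). Nlrp9a and Cyp2d11 were not called (adjusted p = 0.0646 and 0.122). For Edn1 they were Crim1 (0.956), Itpr3 (0.954), Afap1l2 (0.950) and Rtn2 (0.948). For Ednrb they were Nek6 (0.959), Hpse (0.949), Sh3bgrl3 (0.939) and Gem (0.938). Of these Hpse, the heparanase gene, exceeded its LV level in RV by 1.58 (adjusted p = 0.00539). Nek6 was also called (0.42, adjusted p = 0.0421), and Sh3bgrl3 and Gem were not. A gene picked for likeness to a member over these arrays tends to share its differences between regions, so such calls add no support. Between members, the highest correlation was that of Edn1 with Ece1, 0.914 over the 10 arrays and 0.847 after each region's mean was removed. Ednrb correlated with Ece1 at 0.769 over the arrays and at -0.024 after the means were removed. The values after removal of the means still hold the shift between slides.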

How the data were processed

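Total RNA from 4 RV, 3 LV and 3 septum samples of C57BL/6N hearts, extracted with TRIzol, was hybridised to Agilent mouse arrays, with 1 sample per array. The titles of the samples gave the region and the replicate number. The authors made the deposited intensity values with Agilent Feature Extraction (version 11.5.1.1, per the labels), which subtracted background and set flags per spot, with no scaling between arrays. A further table of log2 values per probe, deposited by the authors and made with GeneSpring, equalled the values computed here within 0.05 after a constant per array for 100% of values and was used as an alternative.

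From the intensity, log2 of the processed signal was taken, control spots and 56 to 128 outlier spots per array were left out, spots of a probe were averaged and the array's 75th percentile was subtracted. Before scaling this percentile lay between 718 and 1004. Of 56605 probes, 30234 (53.4%) were tested, those that all arrays of 1 region or more had well above background. The number of arrays limits the precision. Names came from RefSeq accessions through a table of assembly GRCm38.p6, and 32994 probes (58.3%) were named. The brightest tested probe stands for a gene.

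limma (version 3.58.1, R 4.3.3) fitted a mean per region to all 10 arrays with a shared spread (2.46 prior degrees of freedom). P-values were two-sided, adjusted by Benjamini-Hochberg over all tested probes, and called below 0.05. Analysis of variance followed by Tukey's HSD, which the methods of the study name, was run as an alternative because the spread per probe is unstable in groups this small. Further settings were scaling by the median, scaling by the percentile of 27226 probes that all 10 arrays had well above background, quantile normalization, normexp (offset 50), no filter, a stricter filter, slide as a block, each slide alone, the replicate number as a block, a spread from only the 2 regions compared, the second brightest probe and leaving out each array. The normexp correction was planned on the mean signal, and the median signal was used because the files read here give that column. The unadjusted Tukey test was chosen after seeing the data. Fits were tested on simulated data.

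The main fit did not pair the samples. The replicate number was used as a block in an alternative fit because the deviations from the region means correlated in all 9 same-numbered pairs (0.360 to 0.645). In addition, 9 of 9 arrays with a partner correlated best with their own number. The labels do not state a pairing, RV replicate 4 has no partner, and numbers 1 and 2 lie on slide 1. The only LV and septum arrays on slide 2 carry number 3, so there a pairing and a shift between slides cannot be told apart. The text names all 9 members, each pathway gene called in a pair of regions and, for the 3 members with the smallest p of the F test, the 4 genes with the most similar pattern. Other genes named (Ren1, Mas1, Cma1, Mcpt4 and single markers) were chosen with their values known. One pathway gene counted in the lists is not reported here by itself. The members, the pathway lists and the marker lists (adipocyte, endothelium, endocardium, smooth muscle and pericyte, fibroblast, cardiomyocyte, mesothelium, macrophage, mast cell, blood, atrial myocardium, glia and nerve) were chosen with earlier results of these data known.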

Additional observations from a re-analysis of the deposited data

How the results depend on the processing

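With the replicate block, which uses the numbers as a pairing, the number of members called rose from 1 to 3 in RV against LV, from 0 to 2 in RV against septum and from 0 to 3 by the F test, and that of pathway genes from 4 to 15 and from 1 to 4. With slide as a block the counts were 3, 2, 2, 14 and 9. Of all probes, this block called 17.6% against LV and 8.74% against septum, and the replicate block 14.9% and 7.12%. Both blocks called Edn1 and Ednrb against LV and Edn1 and Ece1 against septum, and changed no other member's call against LV or septum. Within slide 1 they were 2 and 1 members and 1 and 0 pathway genes, and within slide 2 0 members against LV and 0 pathway genes in either pair.

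Ece1 lost its call in RV against LV under scaling by the median (0.41, adjusted p = 0.149), no filter (0.43, adjusted p = 0.150), within slide 2 (0.29, adjusted p = 0.278), under the adjusted Tukey test (adjusted p = 0.0547) and with the spread of the compared regions alone (adjusted p = 0.0635), so 0 members were called there, and pathway genes called were 1 under the median, no filter and compared regions alone. The F test called 1 member under quantile normalization, scaling by probes above background on all arrays, normexp and the stricter filter. In RV against septum pathway genes called were 2 under quantile normalization and scaling by probes above background on all arrays, 0 with no filter and 3 under the adjusted Tukey test. Unadjusted, Tukey's test called 4 members by the F test, 3 and 2 members in the pairs with RV, and 11 and 8 pathway genes. Leaving out each array gave 0 to 1 members by the F test and in RV against LV, and 1 to 3 and 0 to 4 pathway genes. The F test could not be had from compared regions alone. The cause of these changes was not tested.

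Signs turned only where differences were small. Ace in RV against LV turned under the median (-0.0027), normexp (-0.0011), slide as a block (-0.015), within slide 1 (-0.11) and the replicate block (-0.020), and ran from -0.16 to 0.17 when arrays were left out. Against septum Ace ran from -0.12 to 0.024, and septum minus LV from -0.10 to 0.24. In septum minus LV, Edn1 turned under normexp (0.037) and within slide 2 (0.013) and ran from -0.18 to 0.12, Agtr1a from -0.13 to 0.052, Ednra from -0.32 to 0.12, and Ednrb was -0.058 with the second probe. In RV against LV, Edn1, Ece1, Ednrb, Atp6ap2, Agt, Agtr1a and Ednra kept their direction in all 25 alternatives. Agtr2 near background cannot be compared between regions on these arrays.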
